A study of Capra hircus with 9 samples.

Results

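The genes of DNA replication and mitosis were followed across age in the submandibular gland of the goat, one of the major paired salivary glands. They are 50 of the 21229 named genes of the expression table, taken by name for their textbook role, with the expected counts of all transcripts of a gene summed (129 transcripts, of which 26 are new assemblies). Of these, 21 act in S phase (the replication list) and 29 in G2 and mitosis (the mitosis list). RNA-seq was run on 9 libraries, from 3 goats aged 1 month, 3 aged 12 months and 3 aged 24 months, one goat per library. All were healthy female Lubo goats kept under the same conditions, fasted and anaesthetised before slaughter, with no treatment or genetic change. By their labels the groups differ in age, and by the markers below they also differ in tissue content. The study compared the ages to describe how gene expression in this gland changes as the animals mature. Levels are given as CPM, a gene's counts scaled to a common library size with TMM factors, which correct for library size and composition. CPM is not corrected for gene length, so levels are compared between libraries and not between genes.

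A dividing cell copies its genome once and then parts the copies. In late G1 the loading factor CDC6 places the MCM ring on replication origins, E2F1 and cyclin E with CDK2 start S phase, CDC45 and the GINS complex turn the loaded ring into an active helicase, and polymerases, primase and the PCNA clamp copy the strands from nucleotides that ribonucleotide reductase supplies. In mitosis CDK1 with its cyclins, the Aurora kinases and PLK1 drive condensation and spindle assembly, the kinetochore and its checkpoint tie chromosomes to microtubules, and kinesins, anillin and ECT2 split the cell. Cells that leave the cycle shut off many of these genes. Growing glands and lymphoid tissue in young animals hold many dividing cells, whereas adult salivary gland renews slowly.

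The libraries held 1.15e+07 to 2.49e+07 expected counts, with fewer in each 1-month library than in any adult library. The tissue label was checked against marker genes, and the 1-month libraries held markers of other tissues as well. The 10 salivary acinar and duct markers summed to 5061 to 5847 CPM at 12 months and 3853 to 4514 CPM at 24 months, against 1898, 183 and 1298 CPM in 1-month replicates 1, 2 and 3. In 1-month replicate 2, AQP5, the water channel of acinar cells, stood at 0.502 CPM, against 132 and 224 CPM in the other 1-month libraries. The 11 thymocyte markers (the recombinases RAG1 and RAG2, the CD3 chains and others) summed to 3449.9, 11897 and 1698 CPM in the same order and to 9.56 to 16.7 and 23.3 to 27.5 CPM at 12 and 24 months. Replicate 2 also stood apart over all genes, with a Pearson correlation of log CPM of 0.80 to 0.81 with the other 1-month libraries, which correlated at 0.94 with each other. On these markers it goes against its label as salivary gland, and for the 50 genes the calls it decides, and the shares of the 1-month level it moves by over 1.5 times, are also given without it. Replicates 1 and 3 at 1 month also held thymocyte markers, at 3449.9 and 1698 CPM, against at most 27.5 CPM in any adult library. Leaving out replicate 2 does not remove this difference, so age and thymocyte content cannot be told apart here. In 24-month replicate 3, 25.1% of the values above 0 were whole numbers, against 0.835% to 2.22% in the other 8 libraries, and how that table column came about is not given in the sources used here.

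Every one of the 50 genes was lower at 12 months than at 1 month in the fit (50.6% of all genes tested were), and 42 were called. A gene is called here when edgeR's quasi-likelihood test gives a Benjamini-Hochberg adjusted p under 0.05 over all genes tested and the absolute log2 fold change is over 2. Of all 14622 genes tested, 9.36% were called lower by the same rule and 2.12% higher. The 29 mitosis genes were all called lower, with log2 fold changes from -7.27 (AURKB, Aurora kinase B) to -3.27 (MAD2L1, a spindle checkpoint protein). Of the 21 replication genes 13 were called lower, and log2 fold changes ran from -4.77 (RRM2, a ribonucleotide reductase subunit) to -0.92 (CCNE2, cyclin E2). On the log2 scale the mitosis list had a median change of -4.95, the replication list one of -2.65 and all genes tested one of -0.02. By adjusted p alone 48 genes were lower (11.7% of all genes tested), and in all 50 the 3 libraries at 12 months lay below the 3 at 1 month (26.5% of all genes tested did so).

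At 24 months, too, 42 genes were called lower than at 1 month and none higher, where 9.01% of 14696 genes tested were called lower and 4.23% higher. All 50 were lower in the fit (50.2% of all genes tested were). All 29 mitosis genes were called, with log2 fold changes from -7.40 (FOXM1, a transcription factor of G2 and mitosis genes) to -3.15 (ANLN, anillin), and 13 of 21 replication genes, from -6.09 (RRM2) to -1.37 (CCNE2). The medians were -5.54 for mitosis, -2.42 for replication and -0.01 for all genes tested. By adjusted p alone 46 were lower (10.4% of all genes tested), and in 49 the groups did not overlap (23.2% of all genes tested). Both comparisons use the same 1-month libraries, so they are not independent of each other. In bulk tissue, fewer dividing cells and less of these RNAs per cell cannot be told apart.

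**Figure D1:**
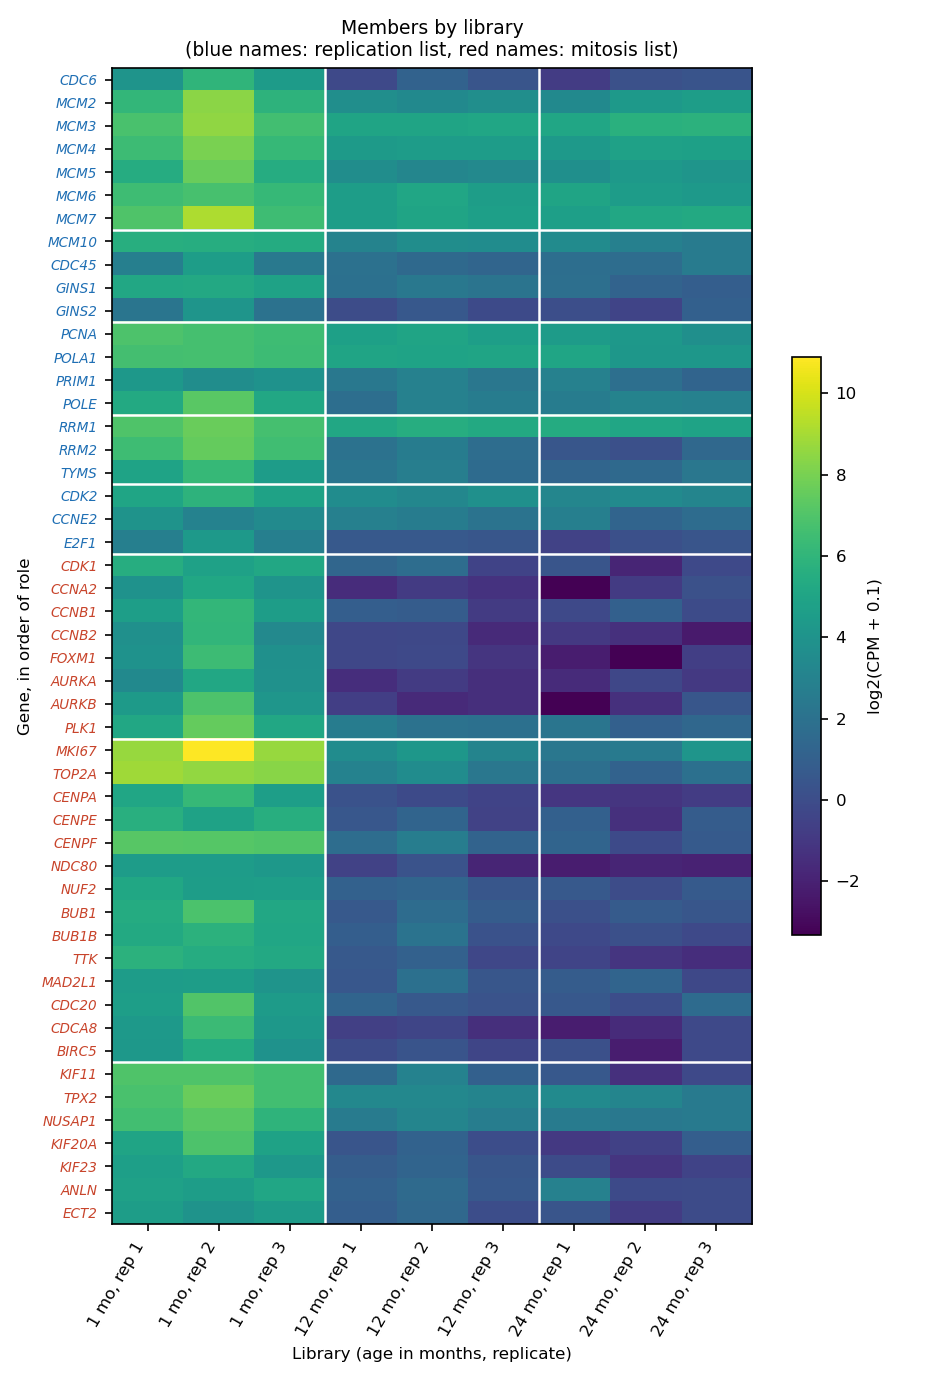
Level of each of the 50 genes in each of the 9 libraries, as colour on a log2(CPM + 0.1) scale, with genes in order of role and white lines between roles and ages. The 3 libraries at 1 month are the brightest in nearly every line, and the step in colour from 1 month to the adult ages is larger for most mitosis genes (red names) than for most replication genes (blue names).

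Origin licensing comes first in the order of events. Its 7 genes, CDC6 and the helicase ring subunits MCM2 to MCM7, summed to 538, 1919 and 457 CPM in 1-month replicates 1, 2 and 3, 127 to 143 CPM at 12 months and 136 to 184 CPM at 24 months. CDC6, which loads the ring onto origins, stood at 16.6, 62 and 22.2 CPM in 1-month replicates 1, 2 and 3, 0.77, 2.1 and 1.23 CPM in the 12-month replicates and 0.481, 1.05 and 1.21 CPM in the 24-month replicates. All adult libraries were below all 1-month libraries, and the adult ages overlapped with each other. The log2 fold change from 1 month was -4.61 (SE 0.72, adjusted p = 0.0118) at 12 months and -5.09 (SE 0.73, adjusted p = 0.0059) at 24 months. MCM2 stood at 68.1, 343 and 58.6 CPM at 1 month, 12.9, 10.5 and 12.9 CPM at 12 months and 10.5, 20.2 and 24.5 CPM at 24 months. Here 1-month replicate 2 was 5.42 times the mean of the other 1-month libraries, while the adult libraries still lay below all of them. Its log2 fold changes were -3.69 (SE 0.79, adjusted p = 0.0248) at 12 months and -3.02 (SE 0.79, adjusted p = 0.0347) at 24 months. MCM6, a subunit of the same ring, stood at 88.6, 108 and 73.4 CPM at 1 month, 24.4, 34.6 and 24.3 CPM at 12 months and 31.2, 23.5 and 20.1 CPM at 24 months, with little spread at 1 month and no overlap with the adult ages. It kept 30.8% of its 1-month mean at 12 months, and its log2 fold changes were -1.66 (SE 0.30, adjusted p = 0.0157) at 12 months and -1.76 (SE 0.37, adjusted p = 0.0174) at 24 months, past the adjusted p but not past the fold threshold. The level of MCM2 relative to MCM6, a pair chosen after the values were seen, was 0.768, 3.17 and 0.799 at 1 month, 0.528, 0.304 and 0.532 at 12 months and 0.335, 0.861 and 1.21 at 24 months. These ratios overlapped between 1 and 24 months, and 1-month replicate 2 was the highest. MCM3, MCM4, MCM5 and MCM7 kept from 10.5% (MCM7) to 16.9% (MCM3) of their 1-month mean at 12 months. All 4 were called lower at 12 months and all but MCM3 at 24 months. These shares rest in part on 1-month replicate 2, and without it they ran from 23.9% (MCM5) to 31.4% (MCM3) at 12 months and from 31.3% (MCM4) to 45.3% (MCM3) at 24 months. Without it CDC6 kept 7.05% and 4.72%, and MCM2 kept 19.1% and 29.02% rather than 7.73% and 11.7%. The call of MCM2 then held at 12 months, at -2.39 (SE 0.16, adjusted p = 0.000356), and was lost at 24 months, at -1.68 (SE 0.39, adjusted p = 0.0137).

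Helicase activation is carried by CDC45 and the GINS complex, with MCM10 as an assembly factor. GINS2 stood at 4.47, 16.8 and 3.97 CPM at 1 month, 0.898, 1.4 and 0.817 CPM at 12 months and 0.962, 0.643 and 1.95 CPM at 24 months. All adult libraries were below the 1-month libraries, and the log2 fold changes were -2.98 (SE 0.73, adjusted p = 0.035) at 12 months and -2.76 (SE 0.79, adjusted p = 0.0449) at 24 months. CDC45 moved less, with 6.84, 24.1 and 5.29 CPM at 1 month, 3.85, 2.84 and 2.41 CPM at 12 months and 3.37, 3.27 and 5.94 CPM at 24 months. At 24 months replicate 3 lay above 1-month replicate 3, the one overlap with the 1-month group among the 50 genes. Its log2 fold changes of -2.00 (SE 0.67, adjusted p = 0.0799) at 12 months and -1.46 (SE 0.68, adjusted p = 0.167) at 24 months did not pass the test. GINS1 and MCM10 were called lower at both ages, with 12.7% and 23.3% of the 1-month mean at 12 months and 7.17% and 17.7% at 24 months. Without 1-month replicate 2, GINS2 kept 24.6% and 28.1% of the 1-month mean at 12 and 24 months, against 12.3% and 14.1% with it, and was called at neither age. CDC45 then kept 50.03% and 69.2%, against 25.1% and 34.7%.

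Among the genes of DNA synthesis, POLE, the catalytic subunit of the leading-strand polymerase, fell the most. It stood at 39.9, 151 and 36.3 CPM at 1 month, 3.46, 7.51 and 6.08 CPM at 12 months and 6.26, 8.19 and 7.57 CPM at 24 months. All adult libraries were below all 1-month libraries, and the log2 fold changes were -3.73 (SE 0.72, adjusted p = 0.0189) at 12 months and -3.29 (SE 0.66, adjusted p = 0.0149) at 24 months. PCNA, the sliding clamp, stood at 121, 103 and 90.3 CPM at 1 month, 27.2, 31 and 24.8 CPM at 12 months and 22.6, 19.1 and 13.2 CPM at 24 months. Its 1-month libraries were close together and far above the adult ones, and each 24-month library was below each 12-month library. Its log2 fold change at 12 months, -1.88 (SE 0.26, adjusted p = 0.00933), was under the fold threshold, and that at 24 months, -2.42 (SE 0.38, adjusted p = 0.00715), was called. PRIM1, the catalytic subunit of primase, stood at 18.9, 12.4 and 15.3 CPM at 1 month, 5.0, 7.45 and 4.81 CPM at 12 months and 7.46, 3.51 and 2.31 CPM at 24 months. The adult libraries were all below the 1-month libraries, and replicate 2 was the lowest of the 1-month libraries. The log2 fold changes of PRIM1 were -1.38 (SE 0.33, adjusted p = 0.0324) at 12 months and -1.71 (SE 0.51, adjusted p = 0.0515) at 24 months, neither called. POLA1, the polymerase that extends the primer, kept 31.8% and 24% of its 1-month mean and was not called at either age. The share POLE kept was 7.5% at 12 months and 9.68% at 24 months, and 14.9% and 19.3% without 1-month replicate 2, with its calls unchanged.

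The nucleotide-supply genes split by subunit. RRM2, the small subunit of ribonucleotide reductase that is made in S phase, stood at 89.4, 186 and 93.1 CPM in 1-month replicates 1, 2 and 3, 3.93, 6.14 and 3.22 CPM in the 12-month replicates and 1.32, 0.994 and 2.73 CPM in the 24-month replicates. The ages did not overlap with one another, and the 24-month libraries held 1.37% of the 1-month mean. RRM2 log2 fold changes were -4.77 (SE 0.50, adjusted p = 0.0062) at 12 months and -6.09 (SE 0.63, adjusted p = 0.00245) at 24 months. RRM1, the large subunit of the same enzyme, stood at 128, 198 and 105 CPM at 1 month, 37.3, 45.9 and 39.5 CPM at 12 months and 42.3, 33.4 and 30.0 CPM at 24 months. The adult libraries were again all lower, but kept 28.5% and 24.5% of the 1-month mean. RRM1 log2 fold changes were -1.78 (SE 0.34, adjusted p = 0.0188) at 12 months and -1.94 (SE 0.41, adjusted p = 0.0179) at 24 months, under the fold threshold. The level of RRM2 relative to RRM1, also a pair chosen after the values were seen, was 0.699, 0.938 and 0.89 at 1 month, 0.106, 0.134 and 0.0815 at 12 months and 0.0313, 0.0298 and 0.0911 at 24 months, with no overlap between 1 month and either adult age. TYMS, which makes thymidylate, was called at both ages and kept 11.2% and 7.87%, or 17.8% and 12.5% without 1-month replicate 2.

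Of the regulators of S phase entry, E2F1 was called and CDK2 and CCNE2 were not. E2F1, a transcription factor of S phase genes, stood at 6.99, 20.5 and 7.03 CPM at 1 month, 1.45, 1.48 and 1.27 CPM at 12 months and 0.602, 0.994 and 1.26 CPM at 24 months, without overlap between the 1-month and adult libraries and with each 24-month library below each 12-month library. Its log2 fold changes were -3.03 (SE 0.58, adjusted p = 0.0183) at 12 months and -3.49 (SE 0.67, adjusted p = 0.0136) at 24 months. It kept 12.2% and 8.28% of the 1-month mean, or 19.99% and 13.6% without 1-month replicate 2. CDK2, the kinase partner of cyclin E, stood at 32.3, 58.8 and 29.2 CPM at 1 month, 12.1, 9.61 and 13.8 CPM at 12 months and 9.02, 11.2 and 8.78 CPM at 24 months, with log2 fold changes of -1.73 (SE 0.39, adjusted p = 0.0272) at 12 months and -1.96 (SE 0.44, adjusted p = 0.0211) at 24 months, past the adjusted p but not the fold threshold. CCNE2, cyclin E2, stood at 15.5, 7.71 and 10.9 CPM at 1 month, 7.18, 6.09 and 4.13 CPM at 12 months and 6.92, 2.34 and 3.1 CPM at 24 months. It kept the largest share of the 50 genes, with 50.9% and 36.2% of the 1-month mean, but without 1-month replicate 2 its shares of 43.9% and 31.1% were below those of CDC45. Its lowest 1-month library was replicate 2, just above the highest adult library, and its log2 fold changes of -0.92 (SE 0.38, adjusted p = 0.128) at 12 months and -1.37 (SE 0.53, adjusted p = 0.109) at 24 months did not pass the test. Without that library they were -1.20 (SE 0.31, adjusted p = 0.0237) and -1.59 (SE 0.51, adjusted p = 0.0455), past the adjusted p but not the fold threshold.

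The regulators and kinases of G2 and mitosis fell further than any role of the replication list in median, at -5.79 (12 months) and -5.46 (24 months) on the log2 scale over 8 genes. AURKB, the kinase of the chromosomal passenger complex, stood at 21, 121 and 17.9 CPM in 1-month replicates 1, 2 and 3, 0.513, 0.227 and 0.272 CPM in the 12-month replicates and 0, 0.292 and 1.31 CPM in the 24-month replicates. All adult libraries were far below the lowest 1-month library, and 24-month replicate 1 had a count of 0. AURKB log2 fold changes were -7.27 (SE 1.07, adjusted p = 0.0106) at 12 months and -6.53 (SE 1.37, adjusted p = 0.0174) at 24 months. CDK1, the kinase that drives entry into mitosis, stood at 46.3, 27.7 and 36.6 CPM at 1 month, 2.44, 3.24 and 0.636 CPM at 12 months and 1.26, 0.176 and 0.789 CPM at 24 months. Replicate 2 was the lowest 1-month library for CDK1, unlike for AURKB, where it was the highest. CDK1 log2 fold changes were -4.09 (SE 0.62, adjusted p = 0.0109) at 12 months and -5.54 (SE 0.67, adjusted p = 0.0039) at 24 months. CCNA2, CCNB1, CCNB2, FOXM1, AURKA and PLK1, which are the cyclins A2, B1 and B2, the transcription factor above, Aurora kinase A and polo-like kinase 1, kept from 1.55% (CCNA2) to 5.49% (PLK1) at 12 months and from 0.56% (FOXM1) to 3.53% (PLK1) at 24 months. Without 1-month replicate 2 the shares of these 6 genes ran from 2.18% (CCNA2) to 12.8% (PLK1) at 12 months and from 1.49% (FOXM1) to 8.26% (PLK1) at 24 months. AURKB kept 0.634% and 1.01%, or 1.73% and 2.75% without that library. All 8 genes were still called without it.

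Genes of chromosome structure, the kinetochore and the spindle checkpoint were called in 14 of 14 cases at both ages. MKI67, the proliferation antigen Ki-67 that coats mitotic chromosomes, stood at 414, 1901 and 417 CPM in 1-month replicates 1, 2 and 3, 12.1, 18.2 and 8.58 CPM in the 12-month replicates and 4.93, 5.73 and 17.1 CPM in the 24-month replicates. The adult libraries were all below the 1-month libraries, and the adult ages overlapped. MKI67 log2 fold changes were -6.14 (SE 0.88, adjusted p = 0.0102) at 12 months and -6.55 (SE 0.99, adjusted p = 0.00712) at 24 months. TOP2A, the topoisomerase that untangles sister chromatids, stood at 468, 380.0 and 324 CPM at 1 month, 7.91, 12 and 4.81 CPM at 12 months and 3.55, 2.11 and 3.73 CPM at 24 months. Here the 1-month libraries were close, replicate 2 lay between the others, and each 24-month library was below each 12-month library. TOP2A log2 fold changes were -5.52 (SE 0.47, adjusted p = 0.00588) at 12 months and -6.87 (SE 0.52, adjusted p = 0.00167) at 24 months. CDCA8 (borealin), a further subunit of the passenger complex, stood at 20.2, 81.6 and 18.7 CPM at 1 month, 0.556, 0.683 and 0.272 CPM at 12 months and 0.12, 0.234 and 0.789 CPM at 24 months, with log2 fold changes of -6.28 (SE 0.86, adjusted p = 0.00934) at 12 months and -6.60 (SE 1.00, adjusted p = 0.00698) at 24 months. MAD2L1, which holds back anaphase until kinetochores are attached, stood at 22.8, 23.7 and 16.5 CPM at 1 month, 1.37, 3.7 and 1.27 CPM at 12 months and 1.68, 2.34 and 0.736 CPM at 24 months. Its 1-month libraries were close together and above all adult ones, and its log2 fold changes were -3.27 (SE 0.52, adjusted p = 0.0119) at 12 months and -3.61 (SE 0.55, adjusted p = 0.00712) at 24 months. The other 10 genes of this role are the centromere proteins CENPA, CENPE and CENPF, the kinetochore pair NDC80 and NUF2, the checkpoint kinases BUB1, BUB1B and TTK, the anaphase activator CDC20 and the passenger subunit BIRC5. They kept from 1.93% (CENPA) to 6.72% (NUF2) of the 1-month mean at 12 months and from 0.692% (NDC80) to 4.56% (NUF2) at 24 months. Without 1-month replicate 2 these 10 ran from 2.82% (CENPF) to 6.92% (CDC20) at 12 months and from 0.718% (NDC80) to 7.61% (CDC20) at 24 months. MKI67 kept 1.42% and 1.02% with that library and 3.12% and 2.23% without it, and CDCA8 1.25% and 0.949% with it and 2.59% and 1.96% without it.

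The 7 genes of the spindle and of cytokinesis were all called at both ages, with medians of -3.86 and -4.52. KIF20A, a kinesin of the cleaving cell, stood at 31.6, 120.3 and 29.4 CPM at 1 month, 1.24, 2.1 and 0.908 CPM at 12 months and 0.421, 0.585 and 1.79 CPM at 24 months, without overlap between the 1-month and adult libraries. KIF20A log2 fold changes were -5.40 (SE 0.79, adjusted p = 0.0105) at 12 months and -5.94 (SE 0.91, adjusted p = 0.00712) at 24 months. Its shares of 2.35% and 1.54% became 4.65% and 3.06% without 1-month replicate 2. ECT2, which activates the contractile ring, stood at 24.3, 15.8 and 22.3 CPM at 1 month, 1.8, 2.73 and 0.907 CPM at 12 months and 1.26, 0.468 and 0.842 CPM at 24 months, with replicate 2 lowest of the 1-month libraries and no overlap with the adult ages. ECT2 log2 fold changes were -3.47 (SE 0.48, adjusted p = 0.00934) at 12 months and -4.52 (SE 0.52, adjusted p = 0.00335) at 24 months. KIF11, TPX2, NUSAP1, KIF23 and ANLN, which are spindle motors and binding proteins, a kinesin of the central spindle and the ring scaffold anillin, kept from 3.57% (KIF11) to 7.37% (ANLN) at 12 months. At 24 months they kept from 0.709% (KIF11) to 10.8% (ANLN). The ANLN value rests on 1 library, 24-month replicate 1 at 7.64 CPM, where the other 24-month libraries were at 0.819 and 0.842 CPM.

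**Figure D2:**
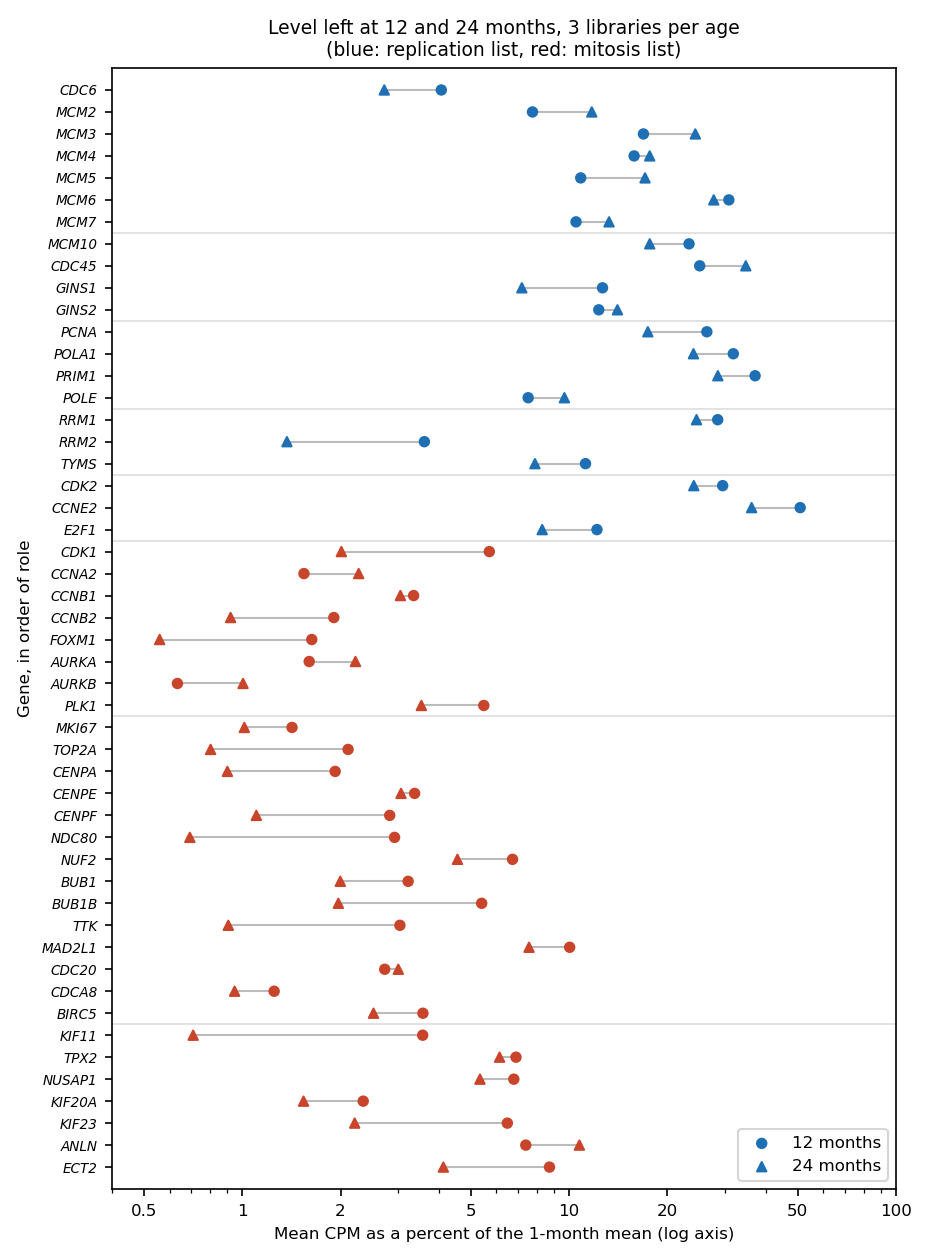
Mean CPM of each gene at 12 months (circles) and 24 months (triangles) as a percent of its mean over the 3 libraries at 1 month, on a log axis, with genes in order of role. Replication genes (blue) lie between 1.37% (RRM2) and 50.9% (CCNE2) and mitosis genes (red) between 0.560% (FOXM1) and 10.8% (ANLN), where leaving out 1-month replicate 2 gives 1.85% (RRM2) to 69.2% (CDC45) and 0.718% (NDC80) to 12.8% (PLK1).

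Set side by side, the mitosis genes retained less of their 1-month level than the replication genes. The median share of the 1-month mean left was 15.8% (range 3.61% to 50.9%) for the replication list at 12 months and 3.22% (0.634% to 10.0%) for the mitosis list. At 24 months it was 17.4% (1.37% to 36.2%) and 2.01% (0.560% to 10.8%). The replication list summed to 1218, 2959 and 1034 CPM in 1-month replicates 1, 2 and 3, 277, 316 and 283 CPM at 12 months and 287, 295 and 292 CPM at 24 months. The mitosis list summed to 2026, 4371 and 1697 CPM at 1 month, 76.4, 108 and 52.9 CPM at 12 months and 57, 38.9 and 57.7 CPM at 24 months. The mitosis sum over the replication sum was 1.66, 1.48 and 1.64 at 1 month, 0.276, 0.34 and 0.187 at 12 months and 0.199, 0.132 and 0.197 at 24 months. The 3 ratios at 1 month were above all 6 adult ratios, while the adult ages overlapped with each other. MKI67 held 1901 of the 4371 CPM in 1-month replicate 2, and without it the ratios were 1.32, 0.835 and 1.24 at 1 month, with replicate 2 lowest, 0.233, 0.283 and 0.156 at 12 months and 0.181, 0.113 and 0.139 at 24 months. Since CPM is not corrected for length, only the change of such a ratio between libraries can be read, not its size. The lists overlap at the edges: RRM2, CDC6, POLE and MCM2 kept 3.61%, 4.07%, 7.5% and 7.73% at 12 months, within the range of the mitosis list. Without 1-month replicate 2, RRM2 and CDC6 stayed within it, and POLE at 14.9% and MCM2 at 19.1% lay above its highest value of 12.8% (PLK1). At 24 months RRM2, CDC6, GINS1, TYMS, E2F1 and POLE lay within the mitosis range, at 1.37% (RRM2) to 9.68% (POLE). The top of that range, ANLN at 10.8%, rests on 24-month replicate 1, and the next mitosis gene was MAD2L1 at 7.55%. TYMS, E2F1 and POLE lay above MAD2L1, so they were within the range only through ANLN. Without 1-month replicate 2 only RRM2, CDC6 and GINS1 lay within the range, at 1.85%, 4.72% and 7.48%, where the mitosis list reached 9.96% (ANLN). No test was made of the difference between the lists, whose genes are not independent replicates.

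At 1 and 12 months all 50 genes were above 3 counts in every library, the limit that a count of 0 allows (0.150 to 0.196 CPM over the 9 libraries). At 24 months all replication genes were above it too, whereas 5, 2 and 2 mitosis genes were at or under it in replicates 1, 2 and 3. Differences among the adult libraries for these mitosis genes were near the limit of detection. The limit covers counting error only.

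Without 1-month replicate 2, the direction held and the median change shrank in both lists. The calls were then 38 at 12 months and 37 at 24 months, with all 29 mitosis genes called at both. The calls lost were those of MCM3, MCM4, MCM7 and GINS2 at 12 months and of MCM2, MCM4, MCM5, MCM7 and GINS2 at 24 months. Calls over all genes tested rose instead, from 1678 of 14622 to 1834 of 14931 at 12 months. At 24 months they rose from 1946 of 14696 to 2117 of 15077. The medians became -1.97 (replication) and -4.40 (mitosis) at 12 months and -1.73 and -5.05 at 24 months. The median share left was then 25.7% and 28.1% for the replication list and 4.69% and 2.76% for the mitosis list, so the 2 lists stood in the same order. The counts of calls depended more on most of the adult libraries than on 1-month replicate 2. Without 12-month replicate 1, 2 or 3 there were 0, 12 and 11 calls against 1 month, where calls over all genes fell from 1678 to 0, 67 and 110. Without 24-month replicate 2 or 3 there were 27 and 23, where calls over all genes fell from 1946 to 546 and 305. Without 24-month replicate 1, 10 replication and 28 mitosis genes were called, where calls over all genes fell to 1339. In the same fits the median log2 fold change of the mitosis list stayed between -5.34 and -4.61 at 12 months and between -5.69 and -5.56 at 24 months.

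Between 12 and 24 months no gene of either list was called, and neither was any of the 14077 genes tested (0% called). Of the 50 genes 44 passed the filter on low counts, and CCNA2, CCNB2, FOXM1, AURKA, AURKB and NDC80 did not. At an unadjusted p under 0.05, edgeR's quasi-likelihood test put 7 genes lower at 24 months (2.65% of all genes tested) and 2 higher (8.4%), all with an adjusted p of 0.426. The 7 lower genes were RRM2 (-1.34), TOP2A (-1.36), CENPF (-1.31), BUB1B (-1.39), TTK (-1.67), KIF11 (-2.27) and KIF23 (-1.51). The 2 higher genes were the ring subunits MCM3 (0.58) and MCM5 (0.71). Of all genes, 10 were called with DESeq2's Wald test and 13 with the exact test of edgeR, none of them among the 50. The fitted value was lower at 24 months for 34 of the 44 genes, where 47.7% of all genes tested were lower. The medians were -0.56 over 23 mitosis genes, -0.24 over 21 replication genes and 0.04 over all genes tested. All 3 libraries at 24 months lay below all 3 at 12 months in 12 of the 50 genes (7.65% of all genes tested), and above them in MCM5 alone (7.72%). Of these 12, NDC80 did not pass the filter on low counts. It lay near the limit of detection, with a highest value of 0.176 CPM at 24 months and a lowest of 0.182 CPM at 12 months. KIF11, the motor that pushes spindle poles apart, stood at 2.78, 7.68 and 1.95 CPM at 12 months and 1.38, 0.292 and 0.789 CPM at 24 months. It was the one gene of the 50 called when a library was left out (24-month replicate 1), in a fit that called 155 of 14351 genes tested, 116 of them lower.

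**Figure D3:**
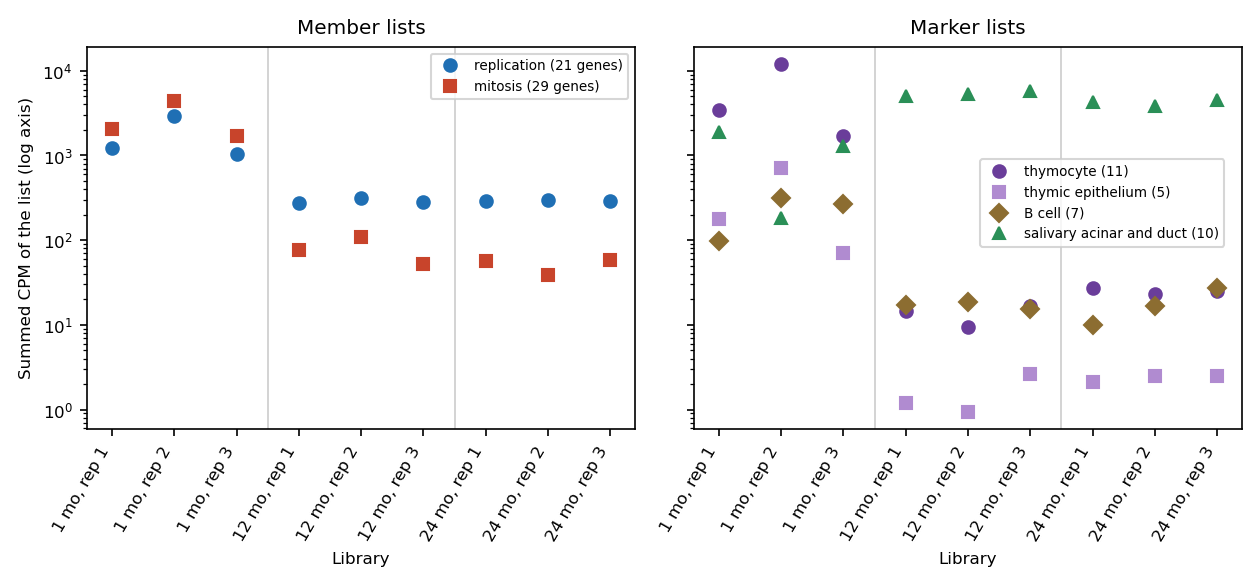
Summed CPM per library, on a log axis, of the replication and mitosis lists (left) and of 4 marker lists (right), with vertical lines between ages. From 1 month to the adult ages the mitosis sum drops further than the replication sum, and the thymocyte and thymic epithelium sums drop as well.

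Markers of other cell types moved with age alongside these genes. For scale, 9.36% and 9.01% of all genes tested were called lower at 12 and 24 months, and 2.12% and 4.23% higher. All 11 thymocyte markers were called lower at both adult ages, and their sum was 1698 to 11897 CPM at 1 month against 9.56 to 16.7 and 23.3 to 27.5 CPM. The recombinase RAG1 stood at 0.0425 to 0.842 CPM over the adult libraries, and DNTT, which adds bases at receptor joints, at 0 to 0.21 CPM. The 5 thymic epithelium markers summed to 71 to 717 CPM at 1 month and to 0.942 to 2.63 and 2.11 to 2.5 CPM at 12 and 24 months, with AIRE at 0 in all 6 adult libraries. The 7 B cell markers summed to 97 to 315, 15.3 to 18.4 and 9.93 to 26.9 CPM, with 4 called lower at each age. The 4 myeloid precursor markers summed to 5.27, 22.9 and 411 CPM in the 1-month libraries and at most 2.16 CPM in any adult library, with 3 and 2 called lower, and the 6 erythroid markers to 4.63 to 7.85 CPM and at most 1.21 CPM, with 1 called lower at each age. Fibroblast markers summed to 5593, 1277 and 6406 CPM in the 1-month libraries and to 682 to 1462 and 584 to 944 CPM in the adult groups, with 1 and 3 of 6 called lower. The 10 salivary markers ran the other way, with 1 and 2 called higher. Endothelial markers overlapped between the ages in their sums, at 351 to 656, 302 to 444 and 307 to 577 CPM, and none of 5 was called. The 5 skeletal muscle markers found in the table summed to 1.31 to 25.4, 1.15 to 42 and 1.87 to 2.63 CPM, with none called. The part of these cell types in the fall of replication and mitosis genes was not tested.

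The mitosis sum over the thymocyte sum was 0.587, 0.367 and 0.999 in 1-month replicates 1, 2 and 3. It was 5.2, 11.3 and 3.16 at 12 months and 2.07, 1.67 and 2.27 at 24 months. The adult ratios divide by small thymocyte sums, of 9.56 to 27.5 CPM. Which cells the mitosis RNA came from was not tested. Among the 1-month libraries, replicate 2 had the highest thymocyte and mitosis sums and the lowest ratio. Its salivary sum was the lowest of all 9 libraries.

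Other genes of these pathways were examined as 2 further lists. Of 32 further replication genes, 15 were called lower at 12 months and 14 at 24 months, none was called higher, and the medians were -1.89 and -1.98. Of 43 further mitosis genes found in the table, 38 were called lower at each age and none higher, with medians of -4.56 and -4.81. Of all genes tested, 9.36% were called lower at 12 months and 9.01% at 24 months. The medians stood in the same order as in the 50 genes. These lists were chosen with earlier results of these data known and use the same 9 libraries, so they are not an independent check. Between 12 and 24 months none of either list was called by edgeR's quasi-likelihood test (0% of all genes tested). In the same test 0 and 3 were lower at an unadjusted p under 0.05 (2.65% of all genes tested).

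The 1-month libraries differed more among themselves for some genes than for others. In replicate 2, 26 genes were over 2 times the mean of replicates 1 and 3 (12 replication and 14 mitosis genes), 13 were between 1 and 2 times it, and 11 were below it. The ratio ran from 0.583 for CCNE2 to 6.2 for AURKB. The 11 genes below the mean were PCNA, PRIM1, CCNE2, CDK1, TOP2A, CENPE, CENPF, NUF2, TTK, ANLN and ECT2. Subunits of one complex fell on different sides of these limits, with MCM2 at 5.42 and MCM6 at 1.34. Of the 26 genes over 2 times, 12 had a higher mean at 24 than at 12 months, against none of the 13 and 1 of the 11 (ANLN). AURKA, AURKB and CCNA2, among the 12, did not pass the filter on low counts. Over all genes tested, whatever their level in replicate 2, 47.7% had a lower fitted value at 24 months. That share uses the fit, whereas the counts above use means of CPM. Across the 44 genes fitted between the adult ages, the log2 ratio of replicate 2 and the fitted change from 12 to 24 months correlated with a Pearson r of 0.47 and a Spearman rho of 0.44. Within the lists they were 0.64 and 0.68 over 21 replication genes, and 0.32 and 0.29 over 23 mitosis genes. Over all 13803 genes with both values, the same correlations were 0.35 and 0.45. This is a description across genes, which share their libraries and are not independent replicates, and no cause was tested.

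**Figure D4:**
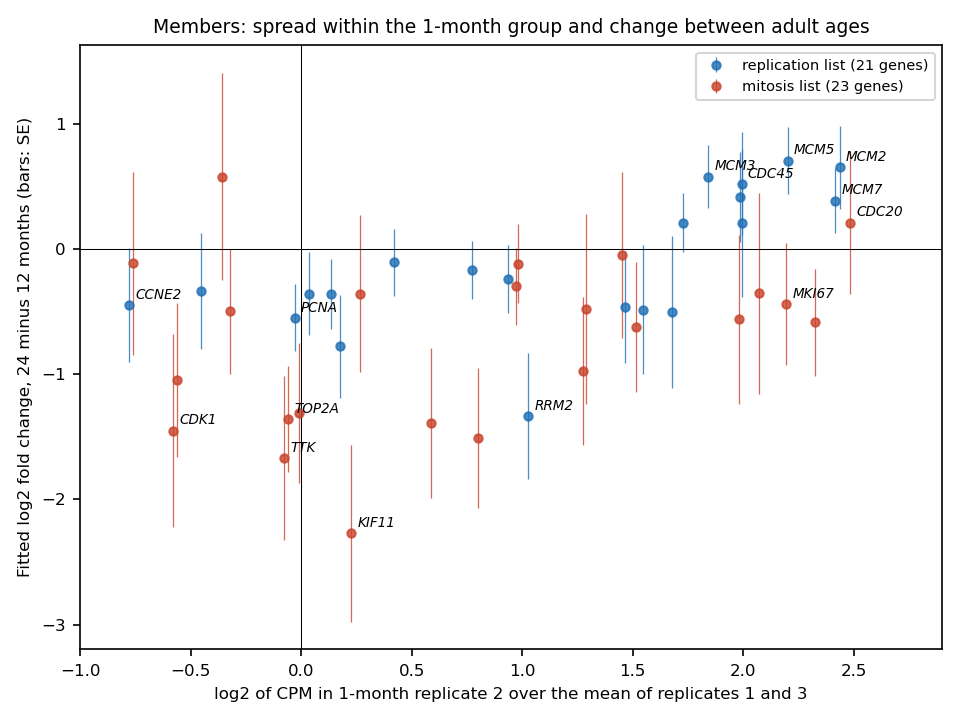
For the 44 genes fitted between the adult ages, the log2 ratio of CPM in 1-month replicate 2 to the mean of replicates 1 and 3 (horizontal) against the fitted log2 fold change from 12 to 24 months (vertical, bars are SE). MCM2, MCM3, MCM5, MCM7 and CDC45 lie at the upper right, and KIF11, TTK, TOP2A and CDK1 at a ratio near or below the mean and lower at 24 months.

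For some genes the sum over transcripts rested on new assemblies. FOXM1 had 2 transcripts, of which the RefSeq transcript was at 0 in all 6 adult libraries and at 0.572, 10.5 and 0.589 CPM at 1 month, whereas the new one carried the rest. CENPE at 24 months also came mostly from a new transcript, at 1.68, 0.269 and 1.53 CPM in replicates 1, 2 and 3, out of 1.92, 0.293 and 1.63 CPM in all. The same transcript stood at 0 in each 12-month library and at 0, 0.254 and 1.59 CPM in the 1-month libraries. CCNE2 was split unevenly between 2 RefSeq transcripts, one of which held all of the 15.5 CPM in 1-month replicate 1 and none in replicate 3. Splitting of reads between near-identical transcripts is an estimate, so the values per gene are firmer than those per transcript.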

How the data were processed

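Expression was measured by RNA-seq of total RNA from 9 submandibular glands. The authors removed ribosomal RNA reads with Bowtie2 2.2.8, aligned the rest with TopHat2 2.1.1, assembled transcripts with Cufflinks and estimated expected counts per transcript with RSEM. The table that the authors deposited holds these expected counts for 52739 transcripts, not normalized for depth or length. The genome build is not given in the sources used here, so no coordinates are printed. All columns were matched to samples (0 were not). The library numbers of the table differ from those the study gives for the older ages, so libraries are named by age and table number.

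Expected counts were summed per gene (RefSeq symbol for 99.9% of known identifiers, table symbol for new transcripts), leaving out transcripts without a gene name, which held at most 6.01% of a library's counts, and rounded. Whether the counting used strand is not given in the sources used here, so reads shared by overlapping genes could change single values. CPM used TMM library sizes over the 9 libraries. Each pair of ages was fitted with its 6 libraries in edgeR 4.0.16 (R 4.3.3) with filterByExpr, TMM, glmQLFit and glmQLFTest, without pairing, and Benjamini-Hochberg adjustment over all genes tested. The calling thresholds (0.05 and a log2 fold change of 2) follow the study's methods, whose FPKM criterion was not applied, since it needs transcript lengths. The SE is the absolute log2 fold change over the square root of the F statistic.

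Members and lists were chosen with earlier results of these data known. Values per library are given for the members with the largest and the smallest fitted change from 1 to 12 months in each of 8 roles and for MKI67, TOP2A, CDK1, PCNA, MCM2, RRM2, CDK2 and E2F1. Other settings tried were 2 further scalings within edgeR (DESeq2's size factors, upper quartiles), the Wald test of DESeq2 1.42.0, the exact test in edgeR, keeping genes of low counts, a single fit of the 9 libraries, transcripts tested singly, a block for the replicate number, and the omission of each library in turn. Scaling by library totals, percentages without 1-month replicate 2 and a ratio without MKI67 were added after the data were seen.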

Additional observations from a re-analysis of the deposited data

How the results depend on the processing

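All directions of the 50 genes against 1 month held in every setting run on summed genes. The counts of calls were 42 at 12 months and 42 at 24 months, where 1678 and 1946 of all genes tested were called. For the 50 genes they were 43 and 46 with DESeq2's Wald test and with a single fit, and 42 and 45 with DESeq2's size factors. Upper quartiles gave 42 and 46, and the exact test and the fit with genes of low counts kept each gave 42 and 42. Over all genes these settings called 1610 to 2426 at 12 months and 1855 to 2634 at 24 months. With transcripts tested singly, 26 and 22 of the 50 genes were called, and 829 of 30272 and 453 of 30205 transcripts. Leaving out one library gave 0 to 44 calls at 12 months, 23 to 45 at 24 months and 0 to 1 between 12 and 24 months. Over all genes these fits called 0 to 1834, 305 to 2117 and 0 to 155. Leaving out one library, the median log2 fold change of the replication list ranged from -2.99 to -1.97 at 12 months, from -2.74 to -1.73 at 24 months and from -0.27 to -0.071 between the adult ages, and that of the mitosis list between the adult ages from -1.12 to -0.23. Scaling by library totals put the median of all genes tested at -0.48 at 12 months, -0.68 at 24 months and -0.17 between the adult ages. With TMM these medians were -0.02, -0.01 and 0.04. Library totals gave 48 and 49 calls at 12 and 24 months, where 1950 and 2245 of all genes tested were called. The medians were then -3.09 (replication) and -6.12 (mitosis) at 24 months and -0.47 (replication) between the adult ages. With transcripts tested singly the mitosis median at 24 months was -6.44. With the replicate block the calls were 35, 41 and 0, with 29 mitosis genes called at each adult age against 1 month and 6 and 12 replication genes. The block fits called 895, 1775 and 7 of all genes tested. The deviations of same-numbered libraries correlated over 0.1 in 2 of 9 pairs (0.34 and 0.15, both between 1 and 24 months) and at -0.19 to -0.033 in the other 7, and the labels do not say that a number marks a shared animal or day. The cause of these shifts was not tested. Depth limits the mitosis genes at 24 months, where some were at or under 3 counts.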
